A study of Saccharomyces cerevisiae with 26 samples.

Results

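Cytochrome oxidase assembly factors build the last enzyme of the respiratory chain without staying in it. The 10 genes described here are COX10, COX11, COX14, COX15, COX16, COX17, COX18, COX19, COX20 and COX23 of Saccharomyces cerevisiae, taken by symbol from the array annotation. They are 10 of 5656 genes that had a probe set of their own. Each had exactly 1 probe set, and all 10 entered the fit, which covered 5369 genes.

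As background, cytochrome c oxidase sits in the inner mitochondrial membrane and passes electrons from cytochrome c to oxygen. Its core subunits Cox1, Cox2 and Cox3 are made inside the mitochondrion, and they receive heme A and copper before the nuclear encoded subunits join them. Separate factors make heme A (Cox10 and Cox15), move copper through the intermembrane space (Cox17, Cox11, Cox19 and Cox23), hold the Cox1 precursor (Cox14 and Cox16) and export and chaperone Cox2 (Cox18 and Cox20). Excess glucose and lack of oxygen are both known to lower many respiratory transcripts of yeast. Sfp1 is a transcription factor best known for its hold on ribosomal protein and ribosome biogenesis genes.

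The deletion strain was sfp1Δ, with the alleles sfp1Δ::KlLEU2 and the paired mutations leu2-3 and leu2-112, and the reference was CEN.PK113-7D. Both are MATa MAL2-8c SUC2, so the strains differ at LEU2 as well as at SFP1. Both grew in aerobic, glucose-limited chemostats at 30 °C, pH 5.0 and a dilution rate of 0.1 per h, with dissolved oxygen held above 60%. The cultures were then made anaerobic with nitrogen, given 200 mM glucose, and sampled 5, 10, 30, 60 and 120 min later, so that loss of oxygen and arrival of glucose cannot be told apart in any group. Each strain had 3 independent cultures at steady state and 2 at each time, 13 arrays in all, and the labels do not say whether 1 culture served several times.

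Values are the deposited array signals, scaled by the authors to nearly equal trimmed means. Signals below a floor of 12 have no order, and they were set to that floor before log2 was taken. Folds are ratios of geometric means, and a fold against a group that holds such an array is a lower bound. Changes and differences are on the log2 scale and are given ± the standard error of the fit. Called genes had a Benjamini-Hochberg adjusted p under 0.05 in limma over all 5369 genes. In RNA of whole cultures, fewer cells with a transcript and less transcript per cell cannot be told apart.

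The SFP1 probe set was below the floor on all 13 deletion arrays and lay between 97.2 and 205 on the reference arrays. Arrays of the same group correlated at 0.97 to 0.993 over genes, apart from the deletion arrays at 10 min (r = 0.805) and at 30 min (r = 0.796). The first replicate of 10 min and the second of 30 min had r = 0.978, and the second of 10 min and the first of 30 min had r = 0.922. Labels were kept. Deletion results are led by 60 and 120 min, and counts at 30 min are given with and without doubted arrays.

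Of the 10 genes, 9 changed over the pulse in the reference strain, and every called change there was a decrease; COX19 was the exception. By an F-test over the 5 times, 6 of the 10 changed in the deletion strain (57.1% of all genes were called) and 9 in the reference (72.2%). Without 10 min replicate 2 and 30 min replicate 2, 9 changed in the deletion strain (79.7%), and without the 3 arrays with the lowest ratios of 5′ to 3′ actin signal 8 did (60.5%). In the deletion strain 7 of the 10 were lower at 60 min than at steady state, where 24.8% of all genes were called lower, and 6 at 120 min (12.8%). In the reference 1 was lower at 10 min (17.3% of all genes), 9 at 30 min (48.4%), 9 after 60 min (38.5%) and 9 after 120 min (28.5%). At 5 min limma called none in either strain, where 0.894% of all genes were called in the deletion strain and 1.9% in the reference. Of the 10, 2 in the deletion strain and 0 in the reference had an unadjusted limma p under 0.05. The median change of the 10 genes was -0.92 in the deletion strain at 60 min and -2.37 in the reference at 30 min on the log2 scale, against 0.00 and -0.53 over all genes. Setting every array to a common median moved the all-gene median in the reference at 30 min to 0.35. Under that scaling and under quantile normalization 8 of the 10 still fell in the reference at 30, 60 and 120 min, without COX18. At these times 1399, 1274 and 901 of the 5369 genes were lower with a common median. After quantile normalization 1620, 1352 and 948 were.

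**Figure D1:**
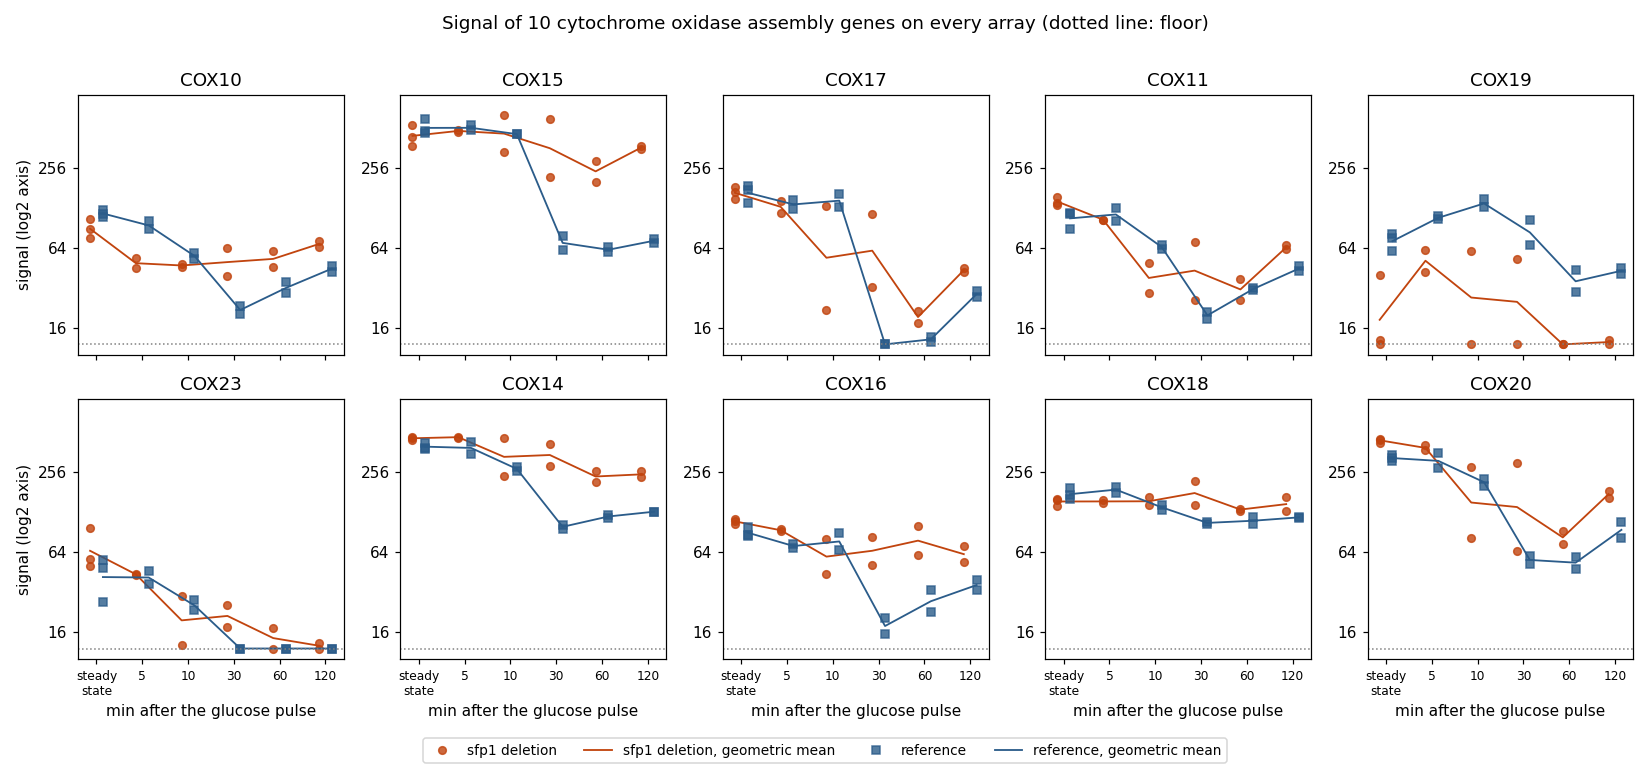
Signal of each of the 10 genes (log2 axis) on every array by min after the pulse, with deletion arrays as circles to the left and reference arrays as squares to the right; lines join geometric means and the dotted line is the floor of 12. COX15, COX16 and COX14 stay well above the reference from 30 min on in the deletion strain, COX19 lies below the reference in every group, and COX18 varies least.

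The heme A pair differed between the strains in how far it fell. COX15 encodes heme A synthase, which oxidizes heme O. COX15 signals in the deletion strain were 538, 372 and 436 at steady state, 477 and 489 at 5 min, 632 and 336 at 10 min, 216 and 592 at 30 min, 289 and 199 at 60 min, and 373 and 353 at 120 min. In the reference strain they were 462, 595 and 479.5 at steady state, 489 and 531 at 5 min, 458 and 456 at 10 min, 78.2 and 61.8 at 30 min, 64.5 and 59.1 at 60 min, and 74.7 and 69.8 at 120 min. Reference signals at 30, 60 and 120 min all lay below every other COX15 value, whereas deletion signals at 120 min overlapped those at steady state. At 60 min 54.1% of the steady-state signal was left in the deletion strain and 12.1% in the reference, and at 120 min 81.8% of the steady-state signal was left in the deletion strain and 14.2% in the reference. The deletion strain's decrease was called at 60 min (-0.89 ± 0.32, adjusted p = 0.036) and not at 120 min (-0.29 ± 0.32, adjusted p = 0.57). The 60 min call was lost with arrays set to a common median, with a replicate block, with such a block within strain and at an adjusted p under 0.01. It was also lost without steady state replicate 1, steady state replicate 3 or 60 min replicate 2. In the reference the changes were -3.04 ± 0.32 (adjusted p = 8.9e-07) at 60 min and -2.82 ± 0.32 (adjusted p = 3.7e-06) at 120 min.

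COX10 encodes the farnesyltransferase that turns heme B into heme O. In the deletion strain COX10 read 76.0, 105 and 88.0 at steady state, 44.9 and 53.3 at 5 min, 45.5 and 48.6 at 10 min, 39.4 and 63.1 at 30 min, 60.5 and 45.9 at 60 min, and 71.3 and 65.3 at 120 min. The reference arrays gave 109.5, 114 and 124 at steady state, 101 and 87.9 at 5 min, 52.5 and 58.6 at 10 min, 23.2 and 20.4 at 30 min, 29.0 and 35.1 at 60 min, and 42.2 and 46.9 at 120 min. It was the one gene of the 10 called lower in the reference at 10 min (-1.06 ± 0.21, adjusted p = 0.0013). The reference reached its lowest COX10 signals at 30 min (-2.41 ± 0.21, adjusted p = 6.8e-08), while the deletion strain was already at 44.9 and 53.3 at 5 min and stayed within 39.4 to 71.3 afterwards. In the deletion strain COX10 fell at 60 min (-0.75 ± 0.21, adjusted p = 0.009; the call was lost without 60 min replicate 2), and the change at 120 min was -0.38 ± 0.21 (adjusted p = 0.22). At 60 min 59.4% of the steady-state signal was left in the deletion strain and 27.6% in the reference.

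Of the copper carriers, COX17 had the deepest measured decrease of the 10 genes at 60 min in both strains. Cox17 is the chaperone that hands copper to Sco1 and Cox11. The deletion arrays gave COX17 signals of 148, 167 and 184 at steady state, 117 and 144 at 5 min, 132 and 21.9 at 10 min, 32.4 and 114 at 30 min, 21.2 and 17.5 at 60 min, and 44.7 and 42.0 at 120 min. Reference signals were 139, 175 and 187 at steady state, 125 and 146 at 5 min, 129 and 161 at 10 min, below the floor on both arrays at 30 min, 12.6 and 13.6 at 60 min, and 27.2 and 30.2 at 120 min. Both reference arrays at 30 min were below the floor, which makes the decrease there at least 13.8-fold (-3.79 ± 0.52, adjusted p = 7.4e-06). At 60 min the decrease was 8.59-fold in the deletion strain (-3.10 ± 0.52, adjusted p = 0.00021) and 12.7-fold in the reference (-3.66 ± 0.52, adjusted p = 1.8e-05). By 120 min 26.2% of the steady-state signal was left in the deletion strain and 17.3% in the reference, and the signals of each strain at 120 min lay above its own at 60 min.

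COX11 encodes the membrane protein that supplies the copper of the Cox1 active site. COX11 signals in the deletion strain were 154, 135 and 139 at steady state, 104 and 104 at 5 min, 49.5 and 29.0 at 10 min, 26 and 71.2 at 30 min, 37.1 and 26 at 60 min, and 62.1 and 66.6 at 120 min. In the reference strain they were 115, 88.9 and 117 at steady state, 101 and 128 at 5 min, 63.0 and 66.6 at 10 min, 21.0 and 18.7 at 30 min, 30.5 and 32.1 at 60 min, and 46.3 and 43.0 at 120 min. Signals at 60 min overlapped between the strains and lay below all steady-state values in each. The change at 60 min was -2.20 ± 0.31 (adjusted p = 5.0e-05) in the deletion strain and -1.76 ± 0.31 (adjusted p = 0.00014) in the reference. At 120 min it was -1.15 ± 0.31 (adjusted p = 0.014) in the deletion strain and -1.25 ± 0.31 (adjusted p = 0.004) in the reference.

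COX23 encodes a twin CX9C protein of the intermembrane space, and its signal was close to the floor after the pulse. In the deletion strain COX23 read 97.1, 50.1 and 56.8 at steady state, 42.8 and 43.9 at 5 min, 29.8 and 12.8 at 10 min, 17.3 and 25.7 at 30 min, 17.2 with 1 array below the floor at 60 min, and 13.2 with 1 array below the floor at 120 min. The reference arrays gave 48, 26.7 and 55.1 at steady state, 36.5 and 46.1 at 5 min, 23.2 and 27.6 at 10 min, and below the floor on both arrays at 30, 60 and 120 min. All 6 reference arrays from 30 min on were below the floor, and so were 1 deletion array at 60 min and 1 at 120 min. The decrease at 60 min was therefore at least 4.53-fold in the deletion strain (-2.18 ± 0.34, adjusted p = 0.00012) and at least 3.44-fold in the reference (-1.78 ± 0.34, adjusted p = 0.00029).

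Of the Cox1 pair, COX14 encodes a small membrane protein that couples Cox1 synthesis to its assembly. The deletion arrays gave COX14 signals of 465, 463 and 443 at steady state, 469 and 462 at 5 min, 459 and 239 at 10 min, 281 and 416 at 30 min, 257 and 216 at 60 min, and 258 and 232 at 120 min. Reference signals were 378, 422 and 387 at steady state, 348 and 428 at 5 min, 259.6 and 278 at 10 min, 102 and 95.6 at 30 min, 122 and 114 at 60 min, and 128 and 128 at 120 min. No reference array reached any deletion array at steady state, at 5 min or from 30 min on, and the arrays of 10 min overlapped. COX14 fell in both strains, and the change at 60 min was -0.95 ± 0.22 (adjusted p = 0.0022) in the deletion strain and -1.74 ± 0.22 (adjusted p = 4.8e-06) in the reference.

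COX16 encodes an inner membrane protein found with newly made Cox1. COX16 signals in the deletion strain were 112, 104 and 109.5 at steady state, 94.5 and 91.5 at 5 min, 79.9 and 43.4 at 10 min, 51.3 and 82.8 at 30 min, 99.3 and 60.7 at 60 min, and 70.2 and 53.8 at 120 min. In the reference strain they were 84.2, 85.4 and 98.6 at steady state, 68.5 and 73.0 at 5 min, 66.6 and 88.0 at 10 min, 15.3 and 20.5 at 30 min, 22.4 and 33.0 at 60 min, and 32.9 and 39.4 at 120 min. The deletion arrays at 60 min lay between 60.7 and 99.3, above every reference array from 30 min on. Within the deletion strain the change at 60 min was -0.48 ± 0.29 (adjusted p = 0.19), and COX16 fell at 120 min (-0.82 ± 0.29, adjusted p = 0.049), a call lost in 18 of 26 fits that left out 1 array. In the reference it fell at 30 min (-2.33 ± 0.29, adjusted p = 2.2e-06), at 60 min (-1.71 ± 0.29, adjusted p = 8.3e-05) and at 120 min (-1.31 ± 0.29, adjusted p = 0.0015). At 60 min 71.6% of the steady-state signal was left in the deletion strain and 30.5% in the reference.

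Of the Cox2 pair, COX20 encodes the chaperone that holds the Cox2 precursor for processing. In the deletion strain COX20 read 455, 446 and 423 at steady state, 370.4 and 404 at 5 min, 277 and 81.5 at 10 min, 64.9 and 297 at 30 min, 91.9 and 73.4 at 60 min, and 163 and 185 at 120 min. The reference arrays gave 323, 307 and 344 at steady state, 271 and 352 at 5 min, 201 and 227 at 10 min, 59.4 and 52.0 at 30 min, 47.8 and 58.8 at 60 min, and 81.4 and 108 at 120 min. In each strain both arrays at 60 min lay below all arrays of steady state, 5 min and 120 min. The decrease at 60 min was 5.37-fold in the deletion strain (-2.42 ± 0.47, adjusted p = 0.0006) and 6.12-fold in the reference (-2.61 ± 0.47, adjusted p = 0.00015). The difference of these changes was 0.19 ± 0.66 (adjusted p = 0.92) and did not pass the test. At 120 min COX20 was called lower in the deletion strain (-1.34 ± 0.47, adjusted p = 0.048), but in 4 of 26 fits that left out 1 array, each without a deletion array of 10 or 30 min.

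COX18 encodes the factor that exports the C-terminal tail of Cox2, and it varied least of the 10 over the 6 groups, with a span of group means of 0.41 log2 units in the deletion strain and 0.83 in the reference. The deletion arrays gave COX18 signals of 158, 142 and 159 at steady state, 149.9 and 156 at 5 min, 165 and 143 at 10 min, 143 and 219 at 30 min, 135 and 131 at 60 min, and 166 and 129 at 120 min. Reference signals were 158, 193 and 171 at steady state, 179 and 197 at 5 min, 133 and 144 at 10 min, 108 and 103 at 30 min, 104 and 116 at 60 min, and 117 and 116 at 120 min. The reference signals at 30, 60 and 120 min lay below those at steady state, and the change at 30 min was -0.72 ± 0.18 (adjusted p = 0.0019) as deposited. It was 0.16 with every array set to a common median and -0.13 after quantile normalization, so its direction depends on the scaling. The deletion strain's change was -0.20 ± 0.18 (adjusted p = 0.38) at 60 min and -0.07 ± 0.18 (adjusted p = 0.83) at 120 min.

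COX19, which encodes a further twin CX9C protein of the copper path, did not follow the other genes. COX19 signals in the deletion strain were 12.9 and 40.0 with 1 array below the floor at steady state, 62.0 and 42.0 at 5 min, 60.7 with 1 array below the floor at 10 min, 52.3 with 1 array below the floor at 30 min, below the floor on both arrays at 60 min, and 12.9 and 12.1 at 120 min. In the reference strain they were 59.9, 80.9 and 76.1 at steady state, 105 and 109.9 at 5 min, 128 and 148 at 10 min, 103 and 67.6 at 30 min, 29.6 and 43.2 at 60 min, and 40.8 and 45.1 at 120 min. The reference signals were highest at 10 min and lowest at 60 min, and no change from steady state was called there, with 0.94 ± 0.61 (adjusted p = 0.29) at 10 min and -1.0 ± 0.61 (adjusted p = 0.17) at 60 min. Deletion and reference arrays did not overlap in any of the 6 groups. Averaged over steady state and the 5 times, a contrast added after the data were seen, COX19 was lower in the deletion strain (-1.75 ± 0.26, adjusted p = 2.7e-05). The deletion floor makes that at least a 3.35-fold difference. COX19 was 1 gene of the 10 called lower in this average, where 13.9% of all genes were, and 4 of the 10 were called higher (COX15, COX14, COX16 and COX20), where 48.3% of all genes were. The call of COX20 in this average was lost in 10 of 26 fits that left out 1 array.

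At steady state COX19 was the only one of the 10 genes called different between the strains, where 5.74% of all genes were called in either direction. The difference was -1.97 ± 0.55 (adjusted p = 0.043), at least 3.91-fold. The deletion cultures had 1 array below the floor, 1 at 12.9 and 1 at 40.0. That call was lost in 19 of 26 fits that left out 1 array, with an adjusted p of up to 0.22, and it was kept without deletion steady state replicate 3 or without 1 deletion array of 10, 30 or 60 min. The average over all groups was called in all 26, but those fits overlap and treat arrays of different times as independent. If 1 culture served several times, the standard error of the average could be too small. A replicate block within strain cannot test this, since it leaves differences between strains without an estimate. The steady-state difference was 0.42 ± 0.28 (adjusted p = 0.42) for COX11 and 0.44 ± 0.42 (adjusted p = 0.59) for COX20, neither called. Without the 4 deletion arrays labelled 10 and 30 min, 3 of the 10 were called at steady state, COX19 lower and COX11 and COX20 higher, where 26.9% of all genes were called.

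The ratio of 5′ to 3′ actin signal, a sign of RNA integrity, was low on 3 deletion arrays. It was 0.598 to 0.968 on 10 deletion arrays, and 0.697 to 0.923 on the reference arrays. The low deletion arrays were replicate 1 of steady state at 0.147, of 30 min at 0.00322 and of 60 min at 0.247. COX19 was below the floor on those 3 arrays. The ratio of middle to 3′ actin signal was 0.207 on deletion 10 min replicate 2, where COX19 was also below the floor, and 0.176 on 30 min replicate 1. It was 0.56 to 0.872 on the other 11 deletion arrays and 0.624 to 0.816 on the reference arrays. Among the 13 deletion arrays, COX19 was at 40.0 to 62.0 on the 5 with a 5′ to 3′ ratio over 0.72. On the other 8 it was at 12.9 or lower, and these 8 include all arrays of 60 and 120 min. The cut at 0.72 was not planned, and the 1 reference array below it, at 0.697, read 43.2. Without the 3 arrays the steady-state difference was -1.66 (adjusted p = 0.096) and the average over all groups -1.52 (adjusted p = 0.00013). At 5 min, where the ratios were 0.742 and 0.734 in the deletion strain and 0.832 and 0.725 in the reference, COX19 read 62.0 and 42.0 in the deletion strain against 105 and 109.9 in the reference. The part of RNA integrity in the COX19 difference was not tested.

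**Figure D2:**
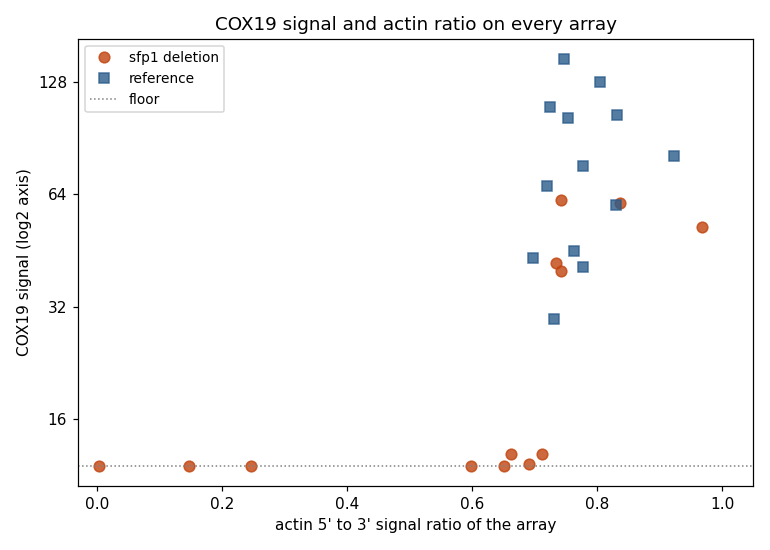
COX19 signal (log2 axis, values under the floor drawn at it) against the ratio of 5′ to 3′ actin signal, 1 point per array, with deletion arrays as circles and reference arrays as squares. The 3 deletion arrays with ratios of 0.247 or lower sit on the floor, and the 5 deletion arrays at 40.0 to 62.0 all have ratios over 0.72. The 1 reference array below 0.72, at 0.697, reads 43.2.

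The strains were then compared at each time. At 60 min 4 of the 10 genes were higher in the deletion strain (25.2% of all genes were), namely COX15, COX16, COX14 and COX10. At 120 min COX15 and COX14 were (17.7%). COX15 had the largest such difference at both times, 3.88-fold at 60 min (1.96 ± 0.35, adjusted p = 0.00068) and 5.02-fold at 120 min (2.33 ± 0.35, adjusted p = 0.00046), and it was called in every fit that left out 1 array. COX16 differed by 1.51 ± 0.31 (adjusted p = 0.0019) at 60 min and 0.77 ± 0.31 (adjusted p = 0.085) at 120 min. COX14 differed by 1.00 ± 0.24 (adjusted p = 0.0048) at 60 min and 0.93 ± 0.24 (adjusted p = 0.012) at 120 min. COX10 differed by 0.72 ± 0.23 (adjusted p = 0.025) at 60 min and 0.62 ± 0.23 (adjusted p = 0.066) at 120 min. The median over all genes was 0.40 at 60 min and 0.39 at 120 min. With arrays set to a common median it was -0.13 at 60 min and -0.09 at 120 min, COX15 was still called at both times and COX16 at 60 min, and COX14 and COX10 were not called. Leaving out deletion 60 min replicate 1 ended the 60 min calls of COX14 and COX10. That array had a 5′ to 3′ actin ratio of 0.247 and read above replicate 2 for COX15, COX16, COX14 and COX10. The part of RNA integrity in these differences was not tested. Leaving out deletion 120 min replicate 1 or either reference array of 120 min ended the 120 min call of COX14. Reference 60 min replicate 1 also decided the call of COX10 at 60 min. The fit without the 3 arrays of low actin ratio keeps 1 deletion array at 60 min. COX10 was not called there, and the median over all genes was 0.23. At 120 min COX16, COX10 and COX19 were called in addition in that fit (adjusted p = 0.044, 0.015 and 0.031). Of all genes 28.2% were then higher and 4.86% lower at 120 min. COX19 differed by -1.57 ± 0.67 (adjusted p = 0.083) at 60 min and -1.78 ± 0.67 (adjusted p = 0.067) at 120 min.

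Leaving out the 4 deletion arrays labelled 10 and 30 min, which lowers the spread shared by all groups, raised these counts as it did for all genes. At 60 min 6 of the 10 were then higher in the deletion strain (43.2% of all genes), COX17 and COX20 in addition. At 120 min 7 were (40.2%), and COX19 was lower at both times with adjusted p of 0.0027 and 0.0014. With all arrays as labelled, 8 of the 10 were higher in the deletion strain at 30 min (36.8% of all genes), and COX19 was lower there (-1.74 ± 0.67, adjusted p = 0.039) and at 10 min (-2.35 ± 0.67, adjusted p = 0.034). Without 10 min replicate 2 and 30 min replicate 2, 6 were higher at 30 min (42.9%), and without the 3 arrays of low actin ratio 9 were (40.5%). With arrays set to a common median 5 were called higher at 30 min (COX15, COX17, COX16, COX14 and COX10), as were 986 of 5369 genes. The median over all genes was then -0.16, against 0.43 as deposited. In a fit of only the groups compared none of the 10 was called at 30 min. The COX19 call at 30 min was lost without deletion 30 min replicate 1 (-0.67) or either reference array of 30 min. The call at 10 min was lost without deletion 10 min replicate 2 (-1.18) or either reference array of 10 min.

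**Figure D3:**
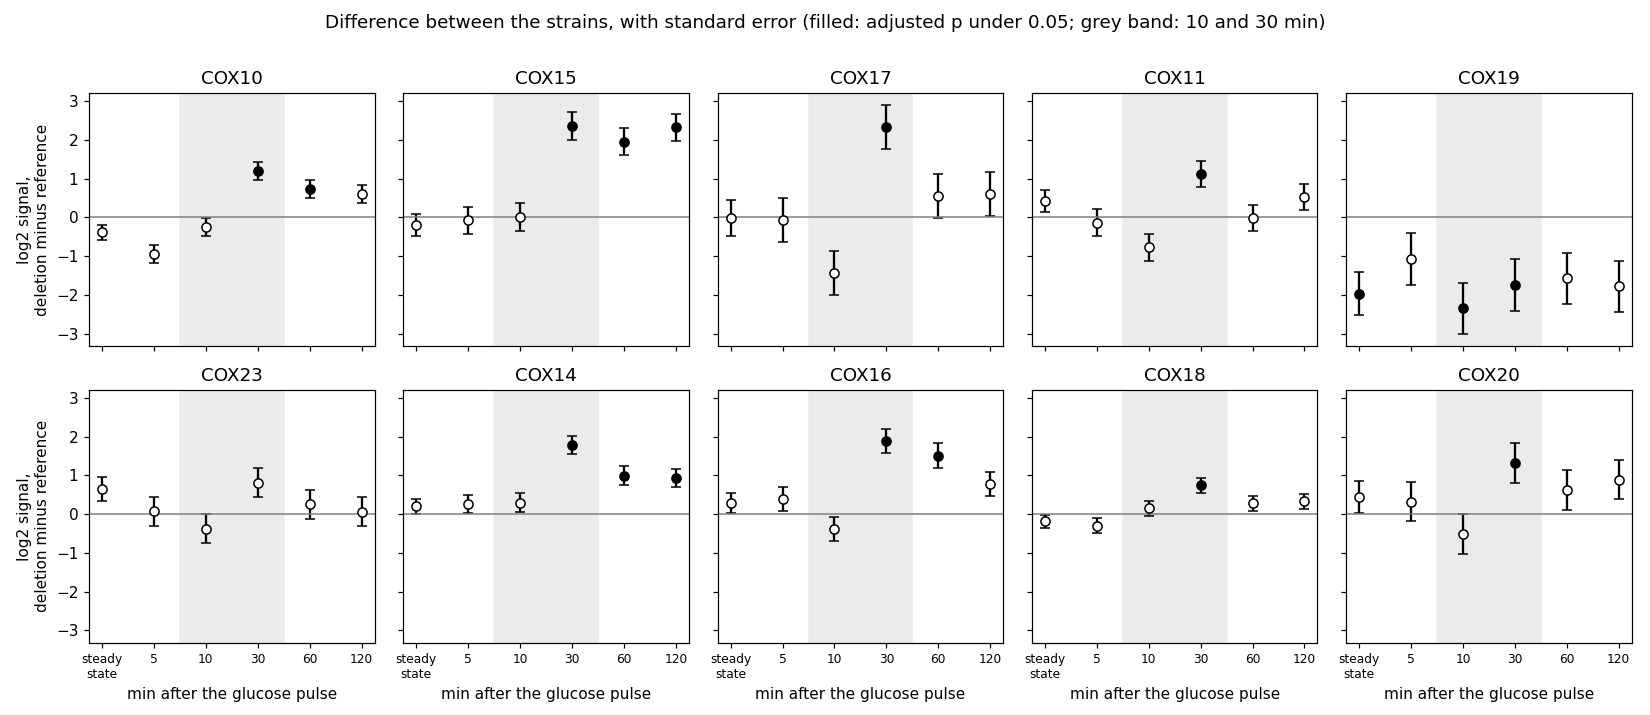
Difference in log2 signal, deletion minus reference, for each gene at steady state and 5 to 120 min, with bars for 1 standard error of the fit; filled points had an adjusted p under 0.05 and the grey band marks 10 and 30 min. COX15 lies between 1.96 and 2.36 at 30, 60 and 120 min, and COX19 is below 0 in all 6 groups.

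Whether a gene's change from steady state differed between the strains was tested with the interaction of strain and time. Over the 5 times 5 of the 10 were called (COX10, COX15, COX17, COX14 and COX16; 20.9% of all genes). At 60 min 2 of the 10 had a smaller decrease in the deletion strain (3.07% of all genes were called in that direction), COX15 by 2.16 ± 0.46 (adjusted p = 0.011) and COX10 by 1.11 ± 0.30 (adjusted p = 0.045). At 120 min COX15 was the only one (2.53 ± 0.46, adjusted p = 0.0076; 1.62%). The COX10 call was lost in 20 of 26 fits that left out 1 array, and kept without deletion steady state replicate 2, 60 min replicate 2 or 1 deletion array of 10 or 30 min. COX15 lost its call at 60 min without deletion 60 min replicate 1 or reference 60 min replicate 2, and at 120 min without deletion 120 min replicate 1. Both of these COX15 calls were also lost in limma with a replicate block within strain (adjusted p = 0.075 and 0.064). Without the 4 arrays of 10 and 30 min, 4 of the 10 were called at 60 min (18.3% of all genes; COX16 and COX14 in addition) and 3 at 120 min (15.3%; COX10 and COX14 in addition).

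At 30 min 6 of the 10 had a smaller decrease in the deletion strain by the labels (21.1% of all genes), COX15, COX17, COX16, COX14, COX10 and COX18. Without 10 min replicate 2 and 30 min replicate 2 again 6 were called (28.2%), COX15, COX17, COX16, COX14, COX10 and COX18. That fit leaves 1 deletion array at 30 min, which is assumed to vary like the other groups. In that fit 8 of the 10 were lower at 30 min than at steady state in the deletion strain (36.4% of all genes), all but COX18 and COX19. The 30 min array it keeps is the one with the lowest actin ratio (0.00322), and without the 3 arrays of low actin ratio 1 of the 10 was lower, COX11 (14% of all genes). COX18's difference was not called under either other scaling. For none of the 10 was an interaction called at 5 or 10 min by limma, where 0% and 1.4% of all genes were called. Of the 10, 0 and 2 genes had an unadjusted limma p under 0.05 at these times.

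COX10 read lower in the deletion strain 5 min after the pulse, at 44.9 and 53.3 against 101 and 87.9 in the reference, without overlap. The difference did not pass the test with all arrays (-0.94 ± 0.23, adjusted p = 0.065) and did without the 4 arrays of 10 and 30 min (adjusted p = 0.0033) and without the 3 of low actin ratio (adjusted p = 0.01). Within the deletion strain the change from steady state at 5 min was -0.86 ± 0.21 (adjusted p = 0.068). At steady state all deletion arrays already lay below all reference arrays for COX10 (-0.38, not called). The interaction at 5 min was -0.56 and was not called by limma, also without the 4 arrays of 10 and 30 min (adjusted p = 0.46).

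Between 30 and 120 min 3 of the 10 rose in the reference strain, a share near that of all genes (25.8%), COX11 by 1.17 ± 0.34 (adjusted p = 0.013), COX10 by 1.03 ± 0.23 (adjusted p = 0.0022) and COX16 by 1.02 ± 0.31 (adjusted p = 0.016). The change of COX15 was 0.05 ± 0.35 (adjusted p = 0.99). With arrays set to a common median the median over all genes was -0.25 in this comparison, against 0.18 as deposited, and COX10 alone of these 3 was called. After quantile normalization none of these 3 was called. A floor of 48 put all 3 changes at 0, since their reference signals at 30 and 120 min lay under it. The COX11 call was lost without reference 30 min replicate 2 or either 120 min array, and the COX16 call without 30 min replicate 1 or 120 min replicate 2. Without the 4 deletion arrays the count was 6 (36.5%), with COX17, COX14 and COX20 added. Leaving out the same arrays also raised the count in the reference at 10 min, to 5 lower (31.8% of all genes; COX10, COX11, COX23, COX14 and COX20) and 1 higher (15.4%; COX19).

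Other genes of the pathway were set beside these 10, in lists given by role. Over all genes 24.8% were lower and 16.1% higher in the deletion strain at 60 min. In the reference at 30 min 48.4% were lower and 19.4% higher. These shares stand beside the list counts that follow. Of 19 other assembly factors of cytochrome oxidase, 16 were lower and 0 higher in the deletion strain at 60 min (median log2 change -1.53), and 18 and 0 in the reference at 30 min (-2.35). In the reference at 30 min PET100, needed to assemble subunits VII, VIIa and VIII, fell 6.76-fold, PET191, a further twin CX9C protein, at least 7.4-fold and IMP1, the peptidase that trims Cox2, 8.03-fold. COA2, which acts beside Shy1, fell at least 10.8-fold in the reference at 30 min and 6.63-fold in the deletion strain at 60 min. At steady state 1 of the 19 was called, beside 5.74% of all genes, namely OXA1, the membrane insertase, at 98.3, 105 and 131 in the deletion strain against 167, 207 and 173 in the reference (-0.71 ± 0.17, adjusted p = 0.023).

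Nuclear cytochrome oxidase subunits had larger median decreases than their assembly factors. Of 10 subunits, 8 were lower and 1 higher in the deletion strain at 60 min (median -2.27), and in the reference at 30 min 9 were lower and 0 higher (-4.25). COX4 fell 14.8-fold in the deletion strain at 60 min and 31.2-fold in the reference at 30 min. COX5A, the aerobic form of subunit V, fell 52.1-fold in the reference at 30 min. COX5B, its hypoxic form, was the subunit that rose in the deletion strain, with 99.5 and 74.3 at 120 min against 15.9, 19.9 and 15 at steady state (2.35 ± 0.14, adjusted p = 1.6e-09). It read 15.2 and 16.5 at 120 min in the reference, where all steady-state arrays were below the floor. Compared with the reference, 6 of the 10 subunits were higher in the deletion strain at 60 min (median 1.83), where 25.2% of all genes were. At 120 min 7 were (2.52), where 17.7% of all genes were. COX12 was higher by 2.69 ± 0.41 (adjusted p = 0.00018) at 60 min and 2.77 ± 0.41 (adjusted p = 0.00041) at 120 min. The 3 mitochondrially encoded subunits had 0 calls at 60 min in the deletion strain and at 30 min in the reference by limma, with none at an unadjusted p under 0.05, and their probe sets were partly below the floor.

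The heme list moved in both directions. Of 10 genes, 3 were lower and 1 higher in the deletion strain at 60 min (median -0.18), where 24.8% and 16.1% of all genes were. In the reference at 30 min 6 were lower and 3 higher (-0.76), near the all-gene shares of 48.4% and 19.4%. The 3 that rose were HEM13, YAH1 and HEM1, the last 2 named after their values were seen. HEM13, the oxygen-dependent coproporphyrinogen oxidase known to rise when oxygen is low, rose 14.6-fold in the deletion strain and 25.2-fold in the reference at 60 min. The electron donors of Cox15 parted. ARH1, the ferredoxin reductase, was higher in the deletion strain than in the reference at 60 min (0.79 ± 0.26, adjusted p = 0.027), as COX15 was. The median over all genes was 0.40 in that comparison, and 25.2% of all genes were called higher. YAH1, the ferredoxin, was lower at 60 min, with 472 and 255 in the deletion strain against 637 and 802 in the reference (-1.04 ± 0.35, adjusted p = 0.032), and at 120 min (-1.13 ± 0.35, adjusted p = 0.031).

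Copper uptake and delivery had calls in 1 direction in the changes from steady state given here. Of 13 genes, 7 were lower and 0 higher in the deletion strain at 60 min (median -0.69), and in the reference at 30 min 8 and 0 (-1.24). CTR3, a plasma membrane copper transporter, fell 9.13-fold in the deletion strain at 60 min and 36.3-fold in the reference at 30 min. Compared with the reference at 60 min, FET3, a copper-dependent iron oxidase, was lower in the deletion strain (-3.32 ± 0.45, adjusted p = 5.9e-05). CTR1 was higher in that comparison (1.57 ± 0.42, adjusted p = 0.01). In the disulfide import path that brings Cox17, Cox19 and Cox23 into the intermembrane space, 4 of 7 were lower in the deletion strain at 60 min (-0.45) and 6 of 7 in the reference at 30 min (-1.32). The receptor MIA40 fell 3.43-fold and 13.1-fold in these comparisons.

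The remaining lists hold factors for the neighbouring complexes and for the COX messages. In the deletion strain at 60 min 4 of 9 translation and splicing factors of the COX messages were lower (median -0.26), 6 of 11 assembly factors of the bc1 complex (-0.79) and 3 of 8 of the ATP synthase (-0.61). In the reference at 30 min the counts were 6 of 9 (-0.82), 10 of 11 with 1 higher (-1.30; CBP1, named after its value was seen) and 6 of 8 (-1.45). PET54, a translation activator of COX3, fell 2.58-fold in the deletion strain at 60 min and 8.05-fold in the reference at 30 min. These lists were not tested against each other.

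**Figure D4:**
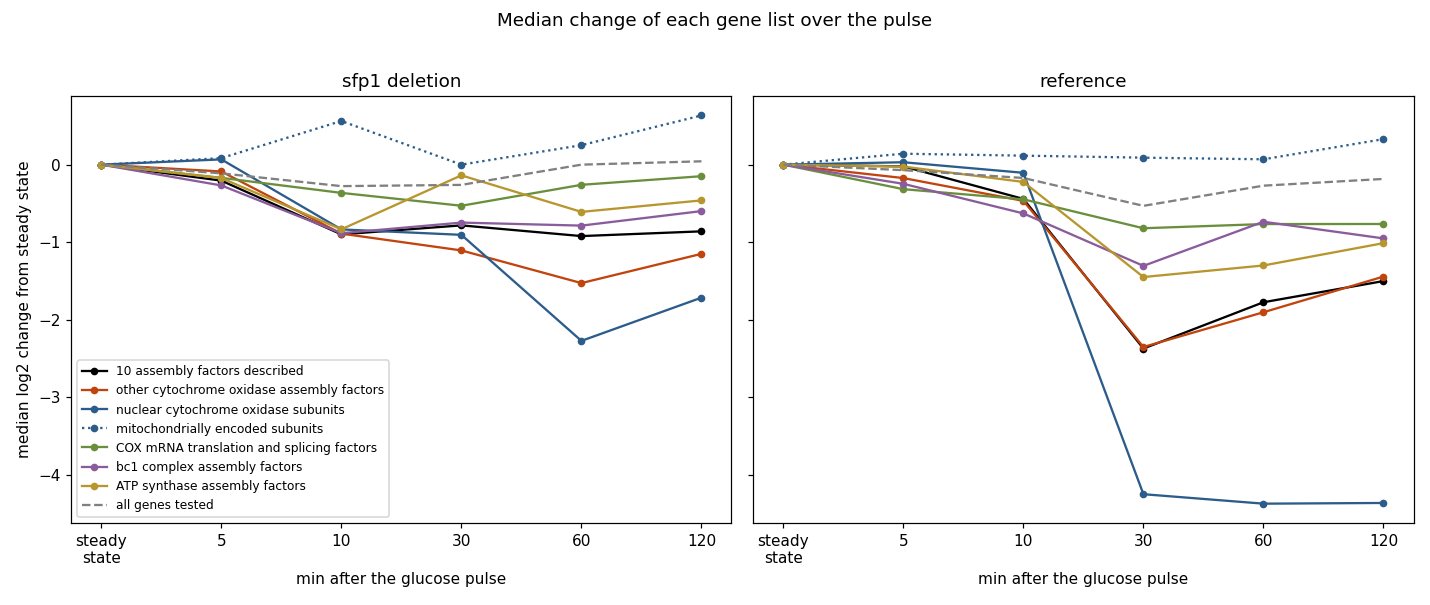
Median log2 change from steady state of the 10 genes and of 6 other lists by min after the pulse, with the deletion strain on the left, the reference on the right and the median of all tested genes dashed. The nuclear subunits reach -2.27 at 60 min in the deletion strain and -4.25 at 30 min in the reference, where the 10 assembly genes reach -0.92 and -2.37 and the other assembly factors -1.53 and -2.35.

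Across the 12 group means the 10 genes had similar profiles, apart from COX19. The 28 pairs without COX18 and COX19 had Pearson r of 0.706 to 0.964 (median 0.85), and the 9 pairs with COX19 -0.182 to 0.291 (median 0.02). With the genes other than COX19, COX18 had r of 0.702 (COX11) to 0.9 (COX14). All pairs share their arrays, so r is given as a description. The gene closest to COX17 among all tested was ATP2, the F1 beta subunit (r = 0.994), followed by ATP17 (0.992). COX14 lay closest to SMN1 (0.990) and PET100 (0.988), and COX11 to DIC1, the dicarboxylate carrier (0.983). COX20 was closest to YLR345W (0.993) and NCA2 (0.991), COX23 to GLG2, a glycogenin (0.985), and COX16 to RPT1, a proteasome subunit (0.982). COX15 paired with PLN1 and NSG2 (0.977 each), COX10 with SCD5 (0.958) and COX18 with SMN1 (0.930). COX19 was closest to ECM10, a mitochondrial heat shock protein (0.924), and the next gene was MEP2, an ammonium permease (0.848).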

How the data were processed

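The 26 arrays, 13 per strain, were grouped by strain and time from the labels. The authors deposited 1 signal intensity for each probe set and used GCOS, per the submitters' processing notes, with version, algorithm and scaling target not given in the sources used here. With 2% cut from each end, trimmed means of the deposited signals were 150.11 to 150.21, and the medians 22.7 to 49.0.

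Of 9335 probe sets 60 controls were left out, 6504 had 1 gene in the platform annotation, 328 several and 2443 none. For the 315 of 5656 genes with more than 1 probe set, the one with the highest mean log2 signal was used. Signals were raised to a floor of 12 and log2 was taken. Genes above the floor on at least 2 arrays were tested (5369, leaving out 287). All 12 groups were fitted together in limma 3.58.1 (R 4.3.3) with an intensity trend and no block, and p-values were adjusted over all tested genes. The scripts were tested on simulated data. Figures were drawn with matplotlib 3.10.9 under Python 3.11.15. Precision is limited by how few arrays a group holds.

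The members and gene lists were chosen with earlier results of these data known, some of them by an earlier analysis of the same arrays. All 10 members are named; each list gave up to 4 called genes of largest change per comparison and each member the 2 genes closest to it by r, with exceptions marked. Alternatives were a floor of 48, a common median, quantile normalization, log2(signal + 1) without a floor, no filter, a highest group mean over 96, all probe sets, no trend, an adjusted p under 0.01, a replicate block, the array code prefix as a block, only the groups compared, and fits without doubted arrays or without each array in turn. Fits without the 3 arrays of low actin ratio, the replicate block within strain, the averages over groups and the late comparisons were added after seeing the data. CMC2, a listed assembly factor, had no probe set of its own.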

Additional observations from a re-analysis of the deposited data

Results flagged for a closer look

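The change from steady state differed between the strains by the interaction test of limma for the following genes, and each value is the deletion strain's log2 change minus the reference's, so that a positive value means a smaller decrease in the deletion strain. At 30 min the difference was 2.56 for COX15, 2.34 for COX17, 1.60 for COX16, 1.58 for COX14, 1.58 for COX10 and 0.93 for COX18. The deletion arrays of 30 min are the ones that did not correlate with each other as other replicates did, and COX17 was below the floor on both reference arrays there. At 60 min the difference was 2.16 for COX15 and 1.11 for COX10, and at 120 min it was 2.53 for COX15.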

How the results depend on the processing

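The 90 called results of the 10 genes were set against 3703 values from alternative settings. Of these 3368 kept the direction and the call, 334 lost the call without a reversal and 1 reversed. The 334 include values of 0 with a floor of 48, for the rises of COX10, COX11 and COX16 from 30 to 120 min. Of the 90 results 39 kept direction and call under every alternative run. The reversal was COX18 in the reference at 30 min with a common median (0.16). The count of genes changed over the pulse in the deletion strain was 6, 2 in a fit of only the groups compared, 9 without 10 min replicate 2 and 30 min replicate 2, 8 without the 3 arrays of low actin ratio, and 6 to 9 without 1 array. In the reference it was 9, and 8 to 10 under the alternatives. The single steady-state call was 0 without a floor, without a filter, at an adjusted p under 0.01, under the replicate block and without the 3 arrays of low actin ratio, 2 without 10 min replicate 2 and 30 min replicate 2, 3 without the 4 arrays of 10 and 30 min, and 0 to 1 without 1 array. In a fit of only the groups compared it was COX20 (adjusted p = 0.021) and not COX19 (adjusted p = 0.058). The 5 interaction calls became 3 with a common median, 8 without the 3 arrays of low actin ratio, and 4 to 8 without 1 array, 8 without deletion 10 min replicate 1 or 30 min replicate 1. The 16 strain calls over the 5 times became 10 at an adjusted p under 0.01 and 10 in a fit of only the groups compared (13 to 23 without 1 array). The replicate numbers were not taken to pair the samples, since the labels do not say that they do. Within strain, correlations of deviations from group means ran from -0.719 (10 and 30 min) to 0.356 in the deletion strain. In the reference they ran from -0.212 to 0.272, and those among the 5 times were all positive (0.07 or more). These correlations do not settle whether 1 culture served several times. A replicate block kept 81 of the 90 calls and lost 9, among them COX15 in the deletion strain at 60 min (adjusted p = 0.058). A replicate block within strain kept 49 of 64 and lost 15, among them that call (adjusted p = 0.1) and the interactions of COX15 at 60 min (0.075) and 120 min (0.064) and of COX17 at 30 min (0.089). The causes of these shifts were not tested beyond what fewer arrays, fewer genes or a stricter threshold imply. Signals near the floor limit COX23, COX19 and COX17.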
